A study of Homo sapiens with 15 samples.

Results

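The potassium channel gene family was described across the development of human retinal organoids (ROs) and the Müller glial cells (MGCs) grown out of them. Its members were all genes whose symbol consists of KCN, 1 or more letters and a number, with the exception of KCNJ10, which the rule leaves out. This gave 94 of the 19684 genes in the deposited tables. Of these, 40 encode voltage-gated channel subunits (KCNA to KCND, KCNF to KCNH, KCNQ, KCNS and KCNV), 15 inward rectifiers (KCNJ), 15 tandem-pore channels (KCNK, which carry a pair of pore domains in each subunit) and 8 calcium-activated channels and their relatives (KCNMA1, KCNN, KCNT and KCNU1). The remaining 16 are accessory subunits without a pore (KCNE, KCNAB, KCNIP and KCNMB). RNA had been sequenced from undifferentiated hiPSCs (induced pluripotent stem cells) of the human BC1-GFP line, which is wild-type and expresses GFP as a reporter, from neural retina (NR) layers cut from ROs after 70 days (D70-ROs) or 150 days (D150-ROs) of differentiation, and from induced MGCs (iMGCs) that had been dissociated from NR layers of D150-ROs, grown on plates and collected on day 5 of passage 1 (P1 iMGCs) or passage 5 (P5 iMGCs). Each of the 5 groups had 3 libraries, all of them from this 1 line, so that the spread between libraries holds no difference between donors. The protocol of the samples speaks of 3 independent experiments per group and the description of the whole data set of 2 for hiPSCs and ROs, and p-values measure only the spread between these libraries.

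Potassium channels let potassium ions leave or enter the cell and so set its resting voltage and shape its electrical signals. Voltage-gated channels open on depolarisation and end it, inward rectifiers and tandem-pore channels hold the resting voltage, and calcium-activated channels couple it to calcium inside the cell. In the retina, voltage-gated channels shape the light response of photoreceptors and the firing of inner neurons, while MGCs are known for a high resting permeability to potassium, through inward rectifiers and tandem-pore channels, with which they clear the ions that neurons release, and for large calcium-activated (BK) currents.

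The 15 libraries held between 11349600 and 20398755 expected counts, with the lowest total in D70-RO replicate 2. FPKM (fragments per kilobase of transcript, scaled to the fragments mapped in a library) was used for levels, and fold changes come from the counts. The photoreceptor markers CRX and RCVRN reached 135.98–149.7 and 257.19–282.17 FPKM in D150-ROs. Of the 10 MGC markers, 9 were tested between iMGCs and D150-ROs, and 3 were higher and 5 lower in iMGCs. RLBP1 (0–0.09 FPKM) and CA2 (0–0.15 FPKM) were near 0 in iMGCs, and AQP4, at 0.15–0.24 FPKM in D150-ROs, was listed at 0 in all 6 libraries. SLC1A3 was at 0.36–1.23 FPKM, SOX9 at 3.47–5.48, GLUL at 12.25–15.2, CRYAB at 27.8–140.9, APOE at 33.8–40.9, DKK3 at 241.3–394.9 and VIM, also made by many other cells, at 2141.45–2900.75 FPKM. The 10 mesenchymal and mural cell markers summed to 4400–4942 FPKM in iMGCs and to 34.0–38.8 FPKM in D150-ROs. The 10 photoreceptor markers summed to 1090–1171 FPKM in D150-ROs, 138–149.2 in D70-ROs and 0.51–0.86 in iMGCs. Because these are bulk samples, fewer cells of a type and less RNA per cell cannot be told apart, and the part that the mixture of cells has in the results below was not tested. FPKM and the counts were scaled differently. In the count fit the median gene moved by between −0.05 and 0.02 on the log2 scale. On the log2(FPKM + 0.1) scale the median gene moved by 0.11 from hiPSCs to D70-ROs and by 0.30 from hiPSCs to D150-ROs. It moved by 0.21 from D70-ROs to D150-ROs and by −0.69 from D150-ROs to iMGCs. Differences in FPKM between these groups have to be read against those shifts. Upper-quartile scaling of the counts moved it by 0.12 from hiPSCs to D70-ROs, by −0.11 from D70-ROs to D150-ROs and by −0.14 from D150-ROs to iMGCs. The study's design text names a pair of companies that prepared and sequenced the RNA and a median-based correction between batches in their joint evaluation, without saying which libraries came from which company or whether the deposited values carry the correction. A batch and the group can therefore not be told apart in any of the comparisons.

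The 250 bases in front of the RefSeq start are shown for 4 channel genes that were high in the RO libraries and rose from hiPSCs to ROs. They are given on the coding strand and 5′ to 3′. Each of the 4 holds the motif marked in it, while KCNA2, which also rose, is not among the members with either motif. The 4 therefore do not stand for the genes that rose. RefSeq (GRCh38.p14) promoters were matched for 70 of the 94 members, with 108 starts in all. Capitals mark letters of motifs that were searched on both strands. In KCNV2 (chr9:2717260-2717509, plus strand) and KCNG4 (chr16:84240013-84240262, minus strand) they mark TAATC or its reverse complement GATTA, the core bound by homeodomain factors of photoreceptors, which stands in 17.9% of the 35116 RefSeq promoter windows of this length. In KCNH6 (chr17:63523108-63523357, plus strand) and KCNK3 (chr2:26692472-26692721, plus strand) they mark TTCAGCACC or its reverse complement GGTGCTGAA, the left part of the site of the neuronal repressor REST, which stands in 0.288% of windows.
KCNV2: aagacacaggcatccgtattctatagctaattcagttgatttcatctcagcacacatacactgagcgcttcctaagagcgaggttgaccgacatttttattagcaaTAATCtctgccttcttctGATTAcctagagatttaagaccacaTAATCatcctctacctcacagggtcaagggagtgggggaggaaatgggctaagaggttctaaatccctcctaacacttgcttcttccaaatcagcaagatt
KCNG4: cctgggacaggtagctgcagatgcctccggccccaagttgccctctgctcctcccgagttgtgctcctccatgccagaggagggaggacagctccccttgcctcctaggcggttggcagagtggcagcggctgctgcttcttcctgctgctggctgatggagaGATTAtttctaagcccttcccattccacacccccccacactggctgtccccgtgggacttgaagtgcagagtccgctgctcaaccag
KCNH6: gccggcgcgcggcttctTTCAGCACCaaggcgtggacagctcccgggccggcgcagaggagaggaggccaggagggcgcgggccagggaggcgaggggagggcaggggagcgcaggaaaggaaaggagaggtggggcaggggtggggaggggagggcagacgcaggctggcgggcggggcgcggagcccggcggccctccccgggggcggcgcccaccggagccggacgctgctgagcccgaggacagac
KCNK3: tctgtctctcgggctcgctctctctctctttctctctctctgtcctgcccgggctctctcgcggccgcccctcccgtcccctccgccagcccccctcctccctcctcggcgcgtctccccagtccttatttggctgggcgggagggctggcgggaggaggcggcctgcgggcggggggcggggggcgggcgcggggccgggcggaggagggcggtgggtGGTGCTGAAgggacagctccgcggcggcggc
KCNV2 held 3 matches of TAATC, the first 144 bases before the start, and KCNG4 held 1, at 87 bases. Of the 108 member windows, 19 held the TAATC core (in 16 of the 70 members), beside 17.9% of all windows. These 16 include KCNJ16 and KCNE1, which were below 1 FPKM in every RO library. KCNH6 and KCNK3 were the 2 with the REST letters, at 233 and 31 bases before the start. In GENCODE 29 both genes start further upstream than in RefSeq, so that the KCNK3 match falls into the first transcribed bases there. The longer TAATCC (5.62% of windows), which overlaps TAATC, stood in 4 of the 108 member windows and in none of these 4 genes. TGANTCA, the letters of an AP-1 site, stood in 9 of the 108 (6.57% of all windows), and GATAA in 15 of the 108 (20.4% of all windows). These are matches of letters only.

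Of the 94 members, 59 reached a mean of at least 1 FPKM in at least 1 group, 35 did not, and 2 of these 35 (KCNA10 and KCNK16) had no count in any library. KCND1, KCNAB2 and KCNMA1 were the 3 members at a mean of at least 1 FPKM in all 5 groups. Among the 59 members, the highest mean was in D150-ROs for 23, in hiPSCs for 14, in D70-ROs for 10, in P5 iMGCs for 8 and in P1 iMGCs for 4. Few genes carried much of the level: KCNV2, KCNH6 and KCNG4 made up 36.9% of the summed FPKM of all members in D150-ROs, and KCNMA1, KCNG1 and KCNK6 made up 67.8% in P1 iMGCs and 54.5% in P5 iMGCs.

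**Figure D1:**
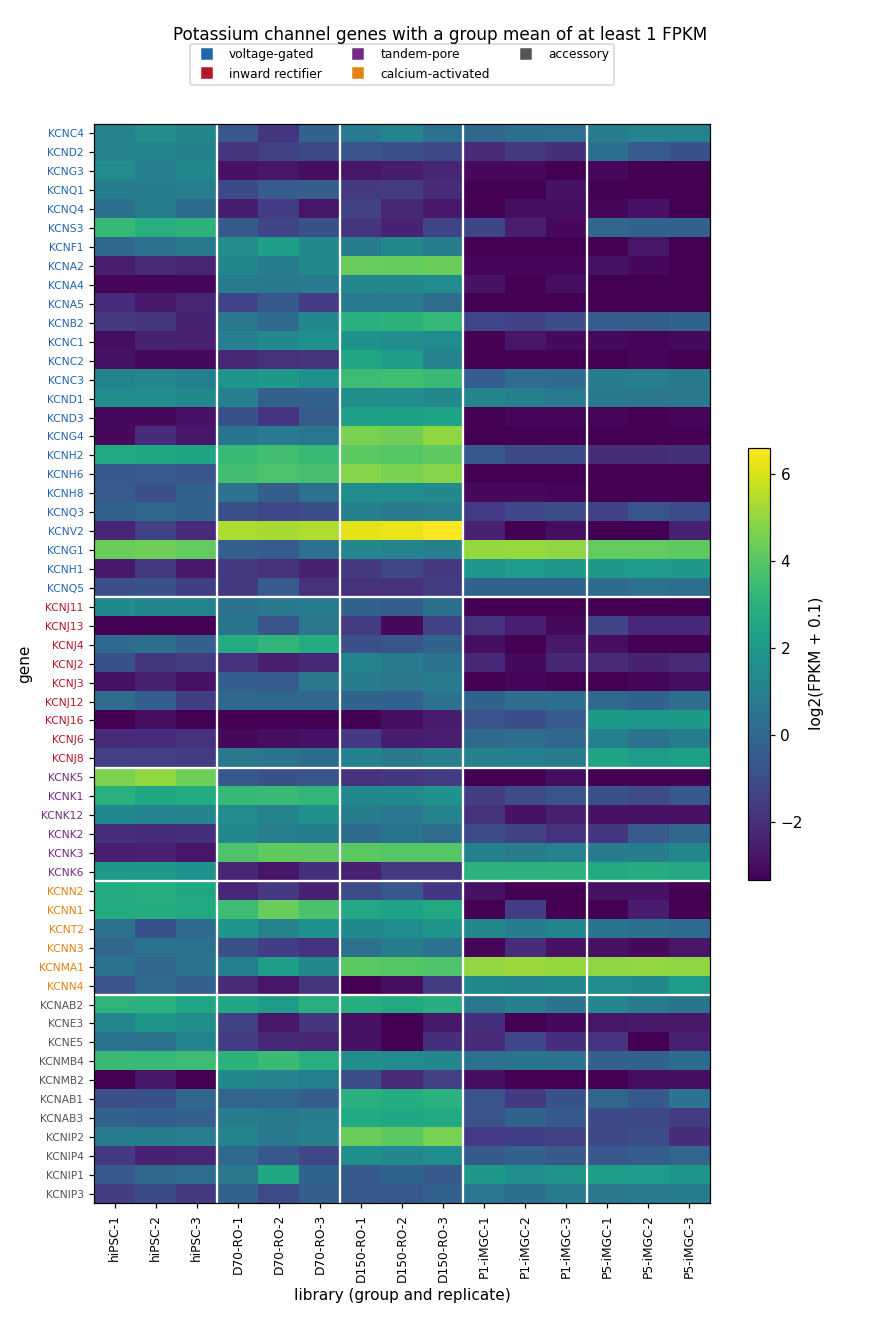
Level of 57 of the members with a group mean of at least 1 FPKM (rows, coloured by class) in each of the 15 libraries (columns), as log2(FPKM + 0.1) on the colour scale. KCNV2 is brightest in the D150-RO columns at 74.1–97.1 FPKM, and KCNMA1 and KCNG1 in the iMGC columns.

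Summed over a class, voltage-gated channels had 106.8 ± 4.25 FPKM in hiPSCs (mean ± SD of 3 libraries, as for all such values), 117.3 ± 4.12 in D70-ROs, 257.4 ± 16.1 in D150-ROs, 44.5 ± 1.28 in P1 iMGCs and 33.6 ± 0.965 in P5 iMGCs. The D150-RO libraries lay above those of every other group, and the iMGC libraries below. Inward rectifiers, here without KCNJ10, were low throughout. Their sums were 5.08 ± 0.847, 15.9 ± 0.91, 9.46 ± 0.616, 4.90 ± 0.141 and 12.1 ± 1.24 FPKM in the same order, with peaks in D70-ROs and P5 iMGCs. Tandem-pore channels had a lower mean at each further stage, with 41.2 ± 5.08 FPKM in hiPSCs and then 33.0 ± 2.07, 24.4 ± 0.415, 11.2 ± 0.547 and 9.98 ± 0.624. Calcium-activated channels had their highest sums in iMGCs, with 17.4 ± 0.534 FPKM in hiPSCs, 21.1 ± 5.21 in D70-ROs, 26.8 ± 1.13 in D150-ROs, 37.4 ± 0.974 in P1 iMGCs and 35.5 ± 0.527 in P5 iMGCs. KCNMA1 alone made up 58.9% of this sum in D150-ROs, 87.9% in P1 and 87.6% in P5 iMGCs. The other genes of the class together were lower in iMGCs than in D150-ROs. Accessory subunits had 28.2 ± 0.421, 26.4 ± 2.34, 49.6 ± 4.87, 10.4 ± 0.352 and 11.4 ± 0.63 FPKM. With sums rescaled by the TMM factors the order of hiPSCs and D70-ROs turned for voltage-gated channels (105.5 and 103.6) and that of hiPSCs and P1 iMGCs turned for inward rectifiers (5.03 and 5.90), whose highest sum then lay in P5 iMGCs (15.1) and no longer in D70-ROs (14.1). These sums are descriptions without a test.

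**Figure D2:**
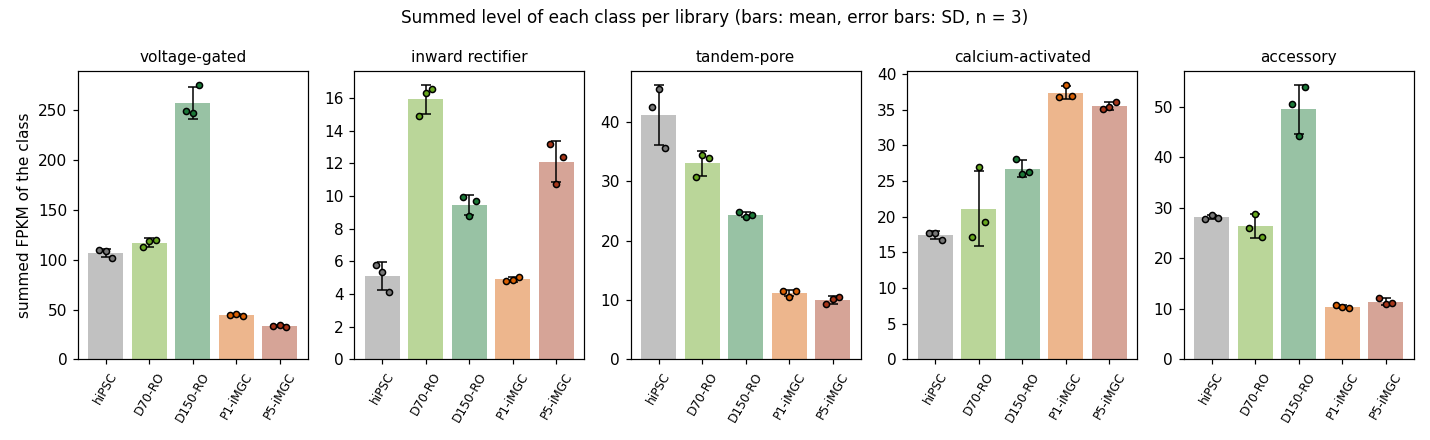
Summed FPKM of each class (y axis, from 0) in the 5 groups (x axis), with points for the 3 libraries of a group, bars for the mean and error bars for the SD. Voltage-gated and accessory genes are highest in D150-ROs, calcium-activated genes in iMGCs (35.0–38.5 FPKM over the 6 libraries, most of it from KCNMA1), and tandem-pore genes in hiPSCs.

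The first comparison asked how the family changed from pluripotent cells to early NR. Of 41 members tested in D70-ROs against hiPSCs, 31 were called (adjusted p under 0.05 and at least 2-fold), 18 higher and 13 lower, while 43.5% of all 12954 genes tested were called, 22.5% higher and 21.1% lower. The median log2 fold change was 0.56 over the members tested and 0.02 over all genes. The groups did not overlap in FPKM for 36 of the 41 members and 75.5% of all genes. Each of the 5 comparisons uses libraries that another one also uses, so their counts are not independent of each other. The members tested are those with at least 1 FPKM in at least 3 libraries compared, and the other members were too low to be tested. A gene can enter through 1 group alone and then tends to come out higher in that group, here and in the other comparisons.

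Among the voltage-gated genes, 9 rose, 8 fell and 3 did not pass in D70-ROs. Positions of genes are given on GRCh38, from GENCODE 29. KCNV2 (ENSG00000168263, chr9:2717502-2730037), a silent subunit that forms channels only together with KCNB subunits and is known as the gene of an inherited cone dystrophy, was at 0.11, 0.29 and 0.13 FPKM in hiPSCs and at 41.3, 39.8 and 43.2 FPKM in D70-ROs. It was the most abundant member in D70-ROs, with a log2 fold change of 7.71 ± 0.24 (SE; edgeR quasi-likelihood test, adjusted p = 7.84e-10). KCNH6, a member of the erg family of slowly deactivating channels, went from 0.53–0.62 to 12.1–13.6 FPKM (4.42 ± 0.19, edgeR adjusted p = 6.14e-09). Its near relative KCNH2, known as hERG from the heart, was present already in hiPSCs, at 5.50–6.22 FPKM, and stood at 10.2–12.1 FPKM in D70-ROs, a 1.78-fold difference below the 2-fold limit. KCNA2 and KCNA4, pores of the Shaker family, rose from 0.08–0.13 to 1.68–2.56 FPKM and from 0.01 in each library to 1.5–1.59 FPKM. The log2 fold change of KCNA2 was 4.91 ± 0.24 and that of KCNA4 was 6.69, with a 95% counting interval of 5.28 to 9.12, because hiPSCs held so few counts of it.

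The 8 voltage-gated genes that fell belonged to several subfamilies. KCNG1 (ENSG00000026559, chr20:51003656-51023129), a silent partner of KCNB channels, had 20.5, 21.8 and 18.7 FPKM in hiPSCs and 0.72, 0.62 and 1.22 FPKM in D70-ROs, which amounts to −4.66 ± 0.22 on the log2 scale (edgeR adjusted p = 1.03e-08). The silent subunits KCNS3 (7.67–9.95 to 0.30–0.60 FPKM, −4.48 ± 0.23) and KCNG3 (1.82–2.67 to 0.03–0.05 FPKM, −5.97 ± 0.34) fell with it. KCND2, a pore of the fast A-type current, went from 1.97–2.13 to 0.18–0.35 FPKM (−3.18 ± 0.31), and KCNQ1, known from the heart and epithelia, from 1.68–1.78 to 0.37–0.70 FPKM (−2.05 ± 0.25).

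Tandem-pore channels changed places. KCNK5 (TASK-2, an alkaline-activated channel known from the kidney) led the class in hiPSCs, with 25.2, 31.4 and 21.4 FPKM, and was at 0.55, 0.45 and 0.50 FPKM in D70-ROs. It fell by 5.83 on the log2 scale (SE 0.21, edgeR adjusted p = 1.85e-09). KCNK3 (TASK-1, an acid-sensitive leak channel) was at 0.08, 0.09 and 0.05 FPKM in hiPSCs and at 13.96, 17.99 and 17.6 FPKM in D70-ROs, a log2 fold change of 7.71 ± 0.26 (edgeR adjusted p = 1.24e-09). KCNK6 fell from 3.37–4.12 to 0.05–0.15 FPKM (−5.28 ± 0.28), and the mechanosensitive leak channel KCNK2 (TREK-1) rose from 0.14–0.16 to 1.72–2.54 FPKM (3.46 ± 0.30). KCNK1 (TWIK-1) was at 5.88–7.96 FPKM in hiPSCs and 9.28–10.9 FPKM in D70-ROs, with no overlap of the groups but only a 1.34-fold difference.

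The inward rectifiers tested were 3, of which KCNJ4 and KCNJ8 rose. KCNJ4, a strong rectifier known from forebrain neurons, had 1.01, 1.18 and 0.78 FPKM in hiPSCs and 6.83, 9 and 6.76 FPKM in D70-ROs (2.78 ± 0.24, edgeR adjusted p = 1.13e-06). It was the most abundant inward rectifier in D70-ROs, while D150-ROs had 0.44–0.79 FPKM and iMGCs at most 0.06 FPKM. KCNJ8, the pore of an ATP-sensitive channel, rose from 0.23–0.27 to 1.04–1.53 FPKM (2.20 ± 0.30). KCNJ13, known from the pigment epithelium, had no FPKM above 0 in hiPSCs and 1.36, 0.51 and 1.45 FPKM in D70-ROs, and was below the limit for testing. All 4 calcium-activated genes tested were called. KCNN2, a small-conductance channel gated by calmodulin, was at 6.85, 7.08 and 6.09 FPKM in hiPSCs and at 0.12, 0.21 and 0.09 FPKM in D70-ROs (−5.95 ± 0.27, edgeR adjusted p = 9.57e-09). Its relative KCNN1 was higher in D70-ROs, at 10.96, 19.8 and 13.3 against 6.83, 7.01 and 6.40 FPKM (1.33 ± 0.19). KCNMA1 (ENSG00000156113, chr10:76869601-77638369), the pore of the BK channel, was at 0.88–1.31 FPKM in hiPSCs and at 1.87, 4.57 and 2.35 FPKM in D70-ROs (1.34 ± 0.29, edgeR adjusted p = 0.00149). D70-RO replicate 2 was the highest in both genes. Without it KCNN1 kept its call, at 1.10 (edgeR adjusted p = 1.54e-05), while KCNMA1 stood at 0.93 and was no longer called. On the log2(FPKM + 1) scale KCNMA1 (0.81), KCNN1 (0.98), KCNJ8 (0.87) and KCNQ1 (−0.80) were below the 2-fold limit.

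Among the accessory subunits, 2 rose and 2 fell. KCNMB2, which makes BK channels inactivate, had 0, 0.05 and 0 FPKM in hiPSCs and 2.40, 2.03 and 1.86 FPKM in D70-ROs. Its log2 fold change was 6.36, with a 95% counting interval of 4.73 to 9.66. Without hiPSC replicate 2, which held its only counts there, the fit gave 8.98, a value that depends on its prior count. In GENCODE 29 KCNMB2 shares exon bases with AC117457.1 on the same strand, so its counts are uncertain. KCNE3, a partner of KCNQ1, fell from 2.31, 3.67 and 3.01 to 0.29, 0.06 and 0.20 FPKM (−4.16 ± 0.37). KCNMB4, the neuronal BK subunit, was the leading accessory gene in both groups, with 10.5–11.3 FPKM in hiPSCs and 7.78–10.7 FPKM in D70-ROs, which overlapped. KCNIP1, a calcium sensor that binds KCND pores, ranged from 0.83 to 6.08 FPKM within D70-ROs, again with the highest value in replicate 2, and did not pass (1.57 ± 0.73, edgeR adjusted p = 0.0699). The sum of the 4 astrocyte and optic stalk markers also varied within D70-ROs, between 8.74 and 32.3 FPKM per library. Most of that range came from the optic stalk marker among them, and not from the astrocyte markers. The part of these markers in the values above was not tested.

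**Figure D3:**
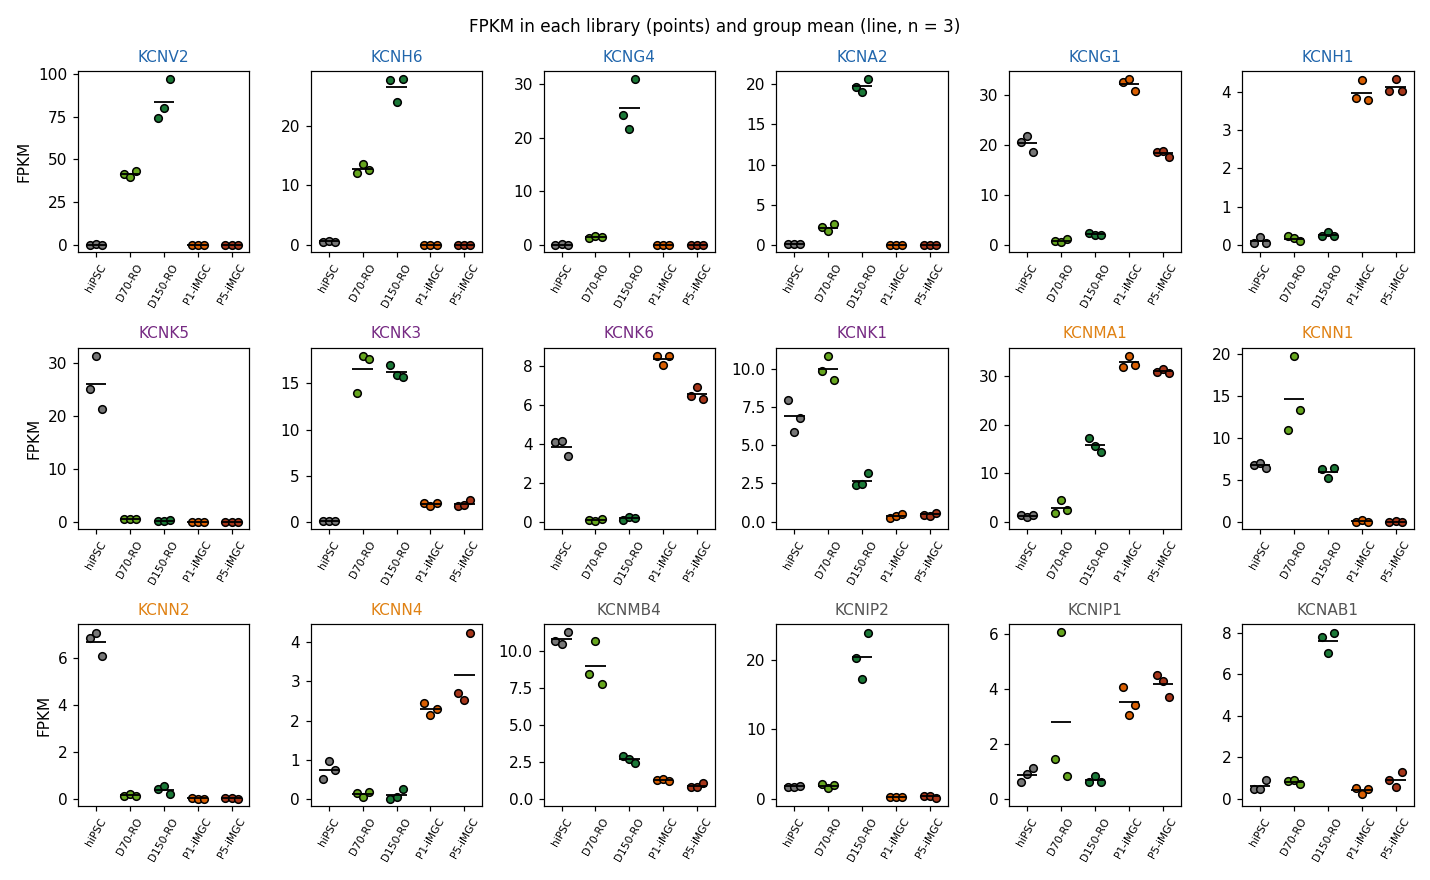
FPKM (y axis) of 18 leading members in each library of the 5 groups (x axis), with a line at the mean of 3 libraries and titles coloured by class as in the plot of changes. KCNV2, KCNH6, KCNG4 and KCNA2 are high in D150-ROs and near 0 in iMGCs, whereas KCNG1 and KCNK6 are high in hiPSCs and iMGCs and low in both RO groups.

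The next comparison followed the NR from D70 to D150. Of 40 members tested, 27 were called, 19 higher and 8 lower in D150-ROs, beside 33.3% of 12855 genes called, 16.6% higher and 16.7% lower. The median log2 fold change was 0.84 over the members and −0.01 over all genes, and 34 members did not overlap in FPKM, beside 77.2% of all genes. On the log2(FPKM + 0.1) scale, on which 64.4% of all called genes were higher in place of 49.8%, 22 members were higher and 6 lower. Of these 28, 25 were among the 27 calls of the count fit, so some members not called there were called on this scale. Of the voltage-gated genes, 12 rose, 1 fell and 7 did not pass. Long transcripts were higher in D150-ROs in general: the median log2 fold change was 0.57 among the 25% longest and −0.67 among the 25% shortest genes, and 13 of the 40 members were among the former. With that trend removed 18 members were higher and 9 lower, beside 27% of all genes called.

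KCNG4, another silent partner of KCNB channels, went from 1.36, 1.57 and 1.40 to 24.3, 21.6 and 31.0 FPKM (3.82 ± 0.18, edgeR adjusted p = 4.77e-07). KCNV2 differed less between the stages, and its 74.1, 79.9 and 97.1 FPKM in D150-ROs corresponded to 0.79 ± 0.11 on the log2 scale, a 1.73-fold difference that lay below the limit although the groups did not overlap. KCNH6 was also below the limit, at 24.1–27.8 FPKM in D150-ROs (0.83 ± 0.11, 1.78-fold). The Shaker pore KCNA2 reached 19.7, 19.0 and 20.6 FPKM (2.76 ± 0.12). KCND3, a pore of the A-type current, reached 4.77–5.27 FPKM from 0.18–0.66 (3.32 ± 0.25), and KCNC2, a fast channel of neurons that fire at high rates, reached 5.75, 4.47 and 2.03 FPKM from 0.12, 0.17 and 0.18 (4.68 ± 0.46). The D150-RO libraries differed widely among themselves in KCNC2, yet the lowest was above all D70-RO libraries. KCNC4 rose from 0.20–0.78 to 1.24–2.14 FPKM (1.60 ± 0.35), but its value was 0.47 with the length trend removed and it was then not called.

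Accessory genes of the same channels rose as well, 4 of the 7 tested, with 2 lower. KCNIP2, a KCND partner, went from 2.05, 1.53 and 1.89 to 20.2, 17.2 and 23.9 FPKM (3.26 ± 0.17, edgeR adjusted p = 7.79e-07), and KCNIP4 from 0.33–0.99 to 2.42–3.01 FPKM (1.90 ± 0.34). The Shaker beta subunits KCNAB1 (0.69–0.90 to 7.03–8 FPKM, 3.04 ± 0.15) and KCNAB3 (1.51–1.77 to 5.88–6.58 FPKM, 1.69 ± 0.15) rose, while KCNAB2 was at 4.22–7.42 and 6.45–7.19 FPKM and did not pass. Of the BK subunits 2 were tested and both fell, KCNMB2 from 1.86–2.40 to 0.13–0.40 FPKM (−3.48 ± 0.32) and KCNMB4 from 7.78–10.7 to 2.39–2.90 FPKM (−1.98 ± 0.16). The BK pore itself moved the other way, KCNMA1 being at 17.2, 15.6 and 14.4 FPKM in D150-ROs (2.22 ± 0.25, edgeR adjusted p = 5e-05). KCNMB3 and KCNMB1 were too low to be tested, KCNMB3 at 0.28–0.58 FPKM in D70-ROs and 0.65–0.79 FPKM in D150-ROs, KCNMB1 at 0.01 FPKM or less. All 3 libraries of D150-ROs were thus above each D70-RO library in KCNMA1 and below each in KCNMB2 and KCNMB4. They were above in KCNMB3 too, but that gene shares exon bases with PIK3CA on the opposite strand, so its counts are uncertain.

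Inward rectifiers exchanged members between the stages. KCNJ4 fell to 0.44, 0.53 and 0.79 FPKM (−3.88 ± 0.26, edgeR adjusted p = 2.48e-06), and KCNJ2, the strong rectifier of heart and muscle, rose from 0.17, 0.08 and 0.12 to 2.06, 1.62 and 1.31 FPKM (3.43 ± 0.26, edgeR adjusted p = 5.27e-06). KCNJ11, the pore of the ATP-sensitive channel of the pancreas, fell to 0.71–1.16 FPKM from 1.25–1.58 (−1.21 ± 0.22), but was not called on the log2(FPKM + 1) and log2(FPKM + 0.1) scales (−0.37 and −0.66). Among tandem-pore channels none rose: KCNK1 fell to 2.40, 2.46 and 3.16 FPKM (−2.24 ± 0.13), KCNK2 to 1.03–1.34 FPKM (−1.23 ± 0.21, but −0.48 and −0.75 and not called on these FPKM scales), and KCNK3 overlapped between the stages at 13.96–17.99 and 15.7–17.0 FPKM. KCNN1 fell to 5.24–6.41 FPKM (−1.65 ± 0.18) and KCNN3, its relative, rose from 0.17–0.45 to 1.23–1.69 FPKM (1.99 ± 0.22, but 0.89 and not called on the log2(FPKM + 1) scale).

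Set against hiPSCs directly, D150-ROs had 42 of 48 tested members called, 27 higher and 15 lower, where 58.8% of 13344 genes were called, 29.8% higher and 29.0% lower. The median log2 fold change was 1.52 over these members and −0.02 over all genes, and 44 members did not overlap in FPKM, beside 87.4% of all genes. The rise of KCNV2 then amounted to 8.50 ± 0.22, that of KCNG4 to 7.96 ± 0.29 (8.63 without hiPSC replicate 2), of KCNA2 to 7.67 ± 0.15 and of KCNK3 to 7.58 ± 0.20 (edgeR adjusted p at most 1.13e-10 for each). KCNK5 had the deepest fall (−7.38 ± 0.22), to 0.17–0.23 FPKM, followed by KCNE3, at 0–0.06 FPKM in D150-ROs (−6.32, 95% counting interval −8.78 to −4.92, and −7.19 without D150-RO replicate 1). KCNN3 lay at the 2-fold limit: its counts gave 1.00 ± 0.14 (edgeR adjusted p = 1.82e-05) and 0.99, no longer called, with upper-quartile scaling, but its FPKM of 1.23–1.69 against 0.91–1.19 gave 0.34, and with the length trend removed it lay at −0.44, the opposite direction. Transcript length mattered more in this comparison than in the others, with medians of 0.89 among the 25% longest and −0.90 among the 25% shortest genes and 14 members among the former. With the trend removed 40 members were called, 23 higher and 17 lower, beside 54.9% of all genes. Photoreceptor markers rose along with most of the called voltage-gated genes: 9 of 9 tested were higher in D150-ROs than in hiPSCs and than in D70-ROs. From D70 to D150, 6 of 7 bipolar cell markers tested were higher and 1 lower, and 6 of 9 amacrine and horizontal cell markers were higher. Their sums were 244.2–287.5 and 74.5–102 FPKM in D150-ROs against 35.5–46.5 and 15.0–16.5 FPKM in D70-ROs, whereas ganglion cell markers fell from 252.6–314.1 to 38.4–49.2 FPKM. The part of any of these cells in the family's change was not tested.

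**Figure D4:**
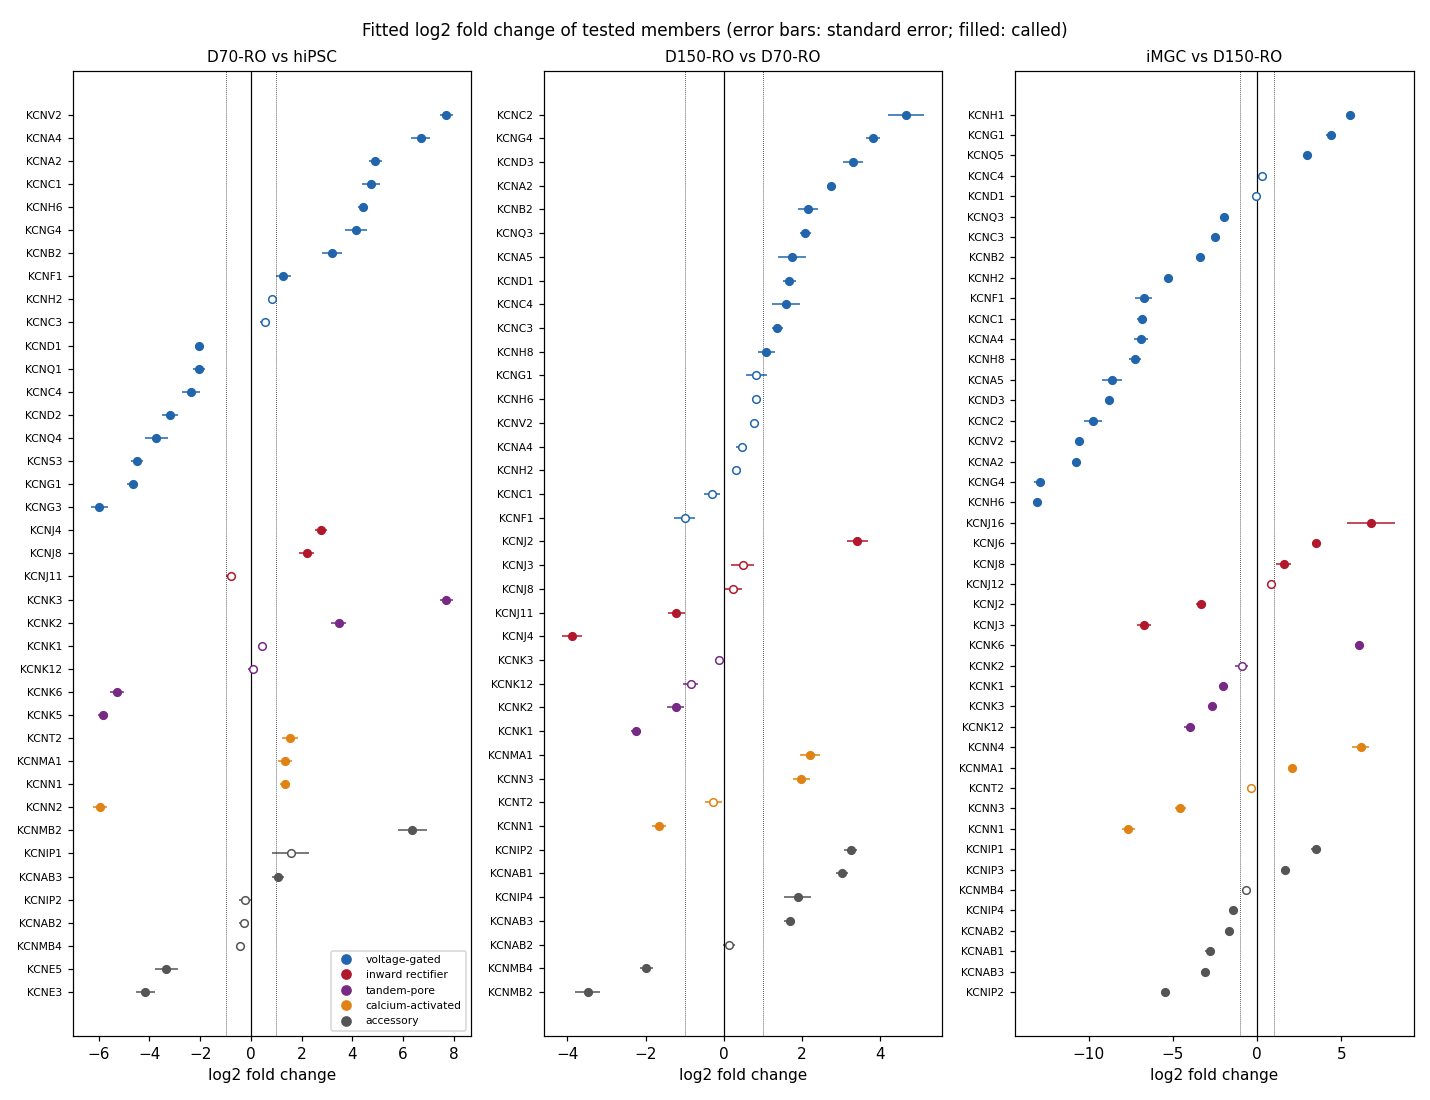
Fitted log2 fold change (x axis, points with standard error) of tested members (y axis, grouped and coloured by class) in 3 comparisons; filled points were called and dotted lines mark a 2-fold change. Voltage-gated points lie on both sides for D70-ROs against hiPSCs, mostly to the right for D150-ROs against D70-ROs and, in 15 of 20, called to the left for iMGCs against D150-ROs; for genes without a count in iMGCs the point depends on the prior count of the fit.

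The comparison of iMGCs with the NR they were grown from asked which channels the cells had in culture. Of 46 members tested over 6 iMGC and 3 D150-RO libraries, 40 were called, 11 higher and 29 lower in iMGCs, beside 44.5% of 13024 genes, 20.8% higher and 23.8% lower. The median log2 fold change was −2.74 over the members and −0.05 over all genes, and on the log2(FPKM + 0.1) scale, on which only 23.0% of all called genes were higher in place of 46.6%, 10 members were higher and 31 lower. In FPKM, 43 members did not overlap, beside 83.1% of all genes. Voltage-gated genes made up most of the members that fell, with 17 of 22 tested lower and 3 higher (median −6.85, or −6.78 with the genes at 0 set to their bound). A mean of at least 1 FPKM was reached by 20 voltage-gated members in D150-ROs, by 4 in P1 and by 6 in P5 iMGCs. Genes that entered the test only through D150-ROs could hardly come out higher in iMGCs. The split and the medians of the members therefore follow in part from the filter. With the P1 libraries alone 7 members were higher and 30 lower, beside 44.1% of all genes called. With the P5 libraries alone 11 were higher and 29 lower, beside 44.6% of all genes.

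KCNV2, the member with the highest FPKM in D150-ROs, was at 0.09, 0 and 0.03 FPKM in P1 and at 0, 0 and 0.09 FPKM in P5 iMGCs (−10.57 ± 0.24, edgeR adjusted p = 4.37e-12). KCNH6, KCNG4 and KCNA5, a Shaker pore, had no count in any of the 6 libraries, which makes them at least 1810-fold, 1620-fold and 81.5-fold lower when 3 counts over the group are taken as the floor. KCNA2 was at 0–0.04 FPKM (−10.74 ± 0.12). KCNC2 had 1 count in all 6 libraries together, with a 95% counting interval of −15.72 to −7.93. Without P5 iMGC replicate 2, which held this count, the fit gave −11.13, a value that depends on its prior count. The erg gene KCNH2 was at 0.36–0.58 FPKM in P1 and 0.14–0.15 FPKM in P5 iMGCs (−5.28 ± 0.24). KCNH7, the remaining erg gene, was too low to be tested, at 0.79–0.93 FPKM in D150-ROs, 0.39–0.64 in P1 and 0.45–0.63 in P5 iMGCs. Photoreceptor markers fell with them (9 of 9 tested), as did all 9 amacrine and horizontal cell markers.

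The 3 voltage-gated genes higher in iMGCs were KCNG1, KCNH1 and KCNQ5. KCNG1 was at 2.29, 2.07 and 1.92 FPKM in D150-ROs, at 32.6, 33.2 and 30.9 FPKM in P1 and at 18.6, 18.7 and 17.6 FPKM in P5 iMGCs (4.38 ± 0.30, edgeR adjusted p = 6.02e-08). Being a silent subunit, it needs a KCNB pore to form a channel, and KCNB2 was at 0.29–0.41 FPKM in P1 and 0.65–0.79 FPKM in P5 iMGCs. KCNH1, an EAG channel known from proliferating and tumour cells, was at 0.22–0.33 FPKM in D150-ROs and at 3.78–4.33 FPKM in iMGCs (5.51 ± 0.17, edgeR adjusted p = 6.32e-11). It shares exon bases with AL590132.1 and AC092017.3 on the same strand, so its counts are uncertain. KCNQ5 lay at 0.17–0.23 and 0.81–1.22 FPKM (2.97 ± 0.20), and was at 0.72 and not called on the log2(FPKM + 1) scale.

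KCNMA1, the BK pore, was the most abundant member in the P5 libraries and stood beside KCNG1 in P1, at 32.0, 34.3 and 32.4 FPKM in P1 and 30.9, 31.6 and 30.7 FPKM in P5 iMGCs. Against 14.4–17.2 FPKM in D150-ROs its counts rose 4.16-fold (2.06 ± 0.05, edgeR adjusted p = 7.54e-12), while the ratio of mean FPKM was 1.02 on the log2 scale, and on the log2(FPKM + 1) scale it was 0.98 and not called. KCNMA1 made up 87.9% of the calcium-activated sum in P1 and 87.6% in P5 iMGCs. Of the BK subunits KCNMB4 was at 1.2–1.35 FPKM in P1 and 0.76–1.05 FPKM in P5 iMGCs and did not pass (−0.67 ± 0.17, 1.59-fold), and KCNMB2 was at 0–0.03 FPKM. KCNN4, the intermediate-conductance channel of blood and other non-excitable cells, rose from 0, 0.03 and 0.24 FPKM to 2.13–2.44 in P1 and 2.70, 2.52 and 4.25 FPKM in P5 iMGCs (6.14 ± 0.50, edgeR adjusted p = 2.83e-07, and 7.58 without D150-RO replicate 3). The small-conductance genes KCNN1 (0–0.24 FPKM, −7.64 ± 0.39, and −8.25 or −8.26 without replicate 2 of P1 or of P5 iMGCs) and KCNN3 (0.01–0.14 FPKM, −4.56 ± 0.34) fell. Within the calcium-activated class the 6 iMGC libraries were thus above all D150-RO libraries in 2 genes and below in the other two called.

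Of the tandem-pore channels 1 rose and 3 fell. KCNK6 (TWIK-2) went from 0.09, 0.22 and 0.21 FPKM in D150-ROs to 8.51, 8.03 and 8.50 FPKM in P1 and 6.44, 6.89 and 6.32 FPKM in P5 iMGCs (6.03 ± 0.20, edgeR adjusted p = 9.92e-11). It made up 74.8% and 65.7% of the class sum. KCNK3 fell to 1.70–2.02 and 1.71–2.39 FPKM (−2.66 ± 0.09) and KCNK1 to 0.25–0.50 and 0.40–0.59 FPKM (−2.04 ± 0.20). KCNK2 was at 0.17–0.40 and 0.20–0.87 FPKM and did not pass. Of the accessory genes KCNIP1 rose to 3.05–4.07 FPKM in P1 and 3.69–4.52 FPKM in P5 iMGCs, from 0.59–0.81 (3.47 ± 0.25), and KCNIP3 to 1.18–1.57 and 1.48–1.75 FPKM, from 0.57–0.74 (1.67 ± 0.19, but 0.60 and not called on the log2(FPKM + 1) scale). KCNIP2 had the deepest fall of the 5 accessory genes that fell, to 0.14–0.42 FPKM (−5.45 ± 0.19). Of the KCND pores, the partners of KCNIP subunits, KCND3 was at 0–0.01 FPKM, KCND2 at 0.13–1.14 FPKM and KCND1 at 1.44–2.16 FPKM, the last of which did not pass (−0.07 ± 0.13). Each KCND value was below each KCNIP1 value, while KCND1 overlapped with KCNIP3.

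Of 6 inward rectifiers tested, 3 rose and 2 fell in iMGCs. KCNJ6, a G-protein-gated rectifier, was at 0.07–0.21 FPKM in D150-ROs, 0.93–1.07 FPKM in P1 and 1.25–1.87 FPKM in P5 iMGCs (3.50 ± 0.24, edgeR adjusted p = 5.34e-08). Its usual partner KCNJ3 fell from 1.41–1.69 to 0–0.03 FPKM (−6.70 ± 0.40, and −7.34 without P5 iMGC replicate 3). KCNJ2 fell to 0.02–0.13 FPKM (−3.33 ± 0.28). KCNJ11 had 0 FPKM in all 6 iMGC libraries and was too low in D150-ROs to be tested here. The calls of KCNJ16 and KCNJ8 (6.76 ± 1.45 and 1.57 ± 0.44) pooled passages that differed. KCNJ16 was at 8.19 without D150-RO replicate 3. KCNJ8 was not called on the log2(FPKM + 1) and log2(FPKM + 0.1) scales (0.55 and 0.72) or with the P1 libraries alone (0.66, edgeR adjusted p = 0.00257), and in FPKM it overlapped between P1 iMGCs and D150-ROs. KCNJ12 (0.82–1.16 FPKM in P5 iMGCs) did not pass the 2-fold limit (0.83 ± 0.17) and is near-identical to KCNJ18, so reads could be split between them. Mesenchymal and mural cell markers rose along with the genes higher in iMGCs (10 of 10 tested, median 7.09), and their part in these changes was not tested.

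The last comparison asked what 4 further passages did. Of 19 members tested, 3 were called, KCNJ16, KCNJ8 and KCNC4, all higher in P5 iMGCs, beside 2.92% of 11366 genes, 1.94% higher and 0.977% lower; 13 members did not overlap in FPKM, beside 39.5% of all genes. KCNJ16 (ENSG00000153822, chr17:70053429-70135608), a silent inward rectifier that joins other KCNJ subunits and makes them sensitive to pH, was at 0.50, 0.41 and 0.65 FPKM in P1 and 4.20, 3.86 and 4.16 FPKM in P5 iMGCs, a rise of 3.23 ± 0.16 (9.38-fold, edgeR adjusted p = 3.59e-14). In the other 9 libraries it had at most 0.07 FPKM. KCNJ8 went from 1.88, 1.87 and 1.69 to 5.51, 4.36 and 4.86 FPKM (1.5 ± 0.14, 2.82-fold, edgeR adjusted p = 3.62e-09). ABCC9, the sulfonylurea receptor with which KCNJ8 forms a channel and which like KCNJ8 is a known marker of pericytes, was at 2.53–2.89 FPKM in P1 and 4.29–4.59 FPKM in P5 iMGCs (0.77, edgeR adjusted p = 4.29e-09), below the 2-fold limit. KCNC4, a fast inactivating channel, went from 0.87, 1.15 and 1.24 to 1.74, 2.09 and 2.09 FPKM (1.05 ± 0.14, 2.07-fold), close to the limit, and was not called on either FPKM scale.

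The adjusted p alone was passed by 10 of the 19 members, the 3 called ones included. KCNG1 was lower in P5 iMGCs (−0.79 ± 0.06, 1.73-fold, edgeR adjusted p = 1.46e-10), as was the sodium-activated channel KCNT2, at 1.71–2.30 and 1.02–1.30 FPKM (−0.73 ± 0.15), and KCNK6 (−0.29 ± 0.06). KCNJ6 was 1.5-fold higher (0.59 ± 0.11, edgeR adjusted p = 0.000218). KCNMA1 and KCNH1 did not pass even that limit (−0.04 ± 0.04 and 0.08 ± 0.07). Of the mesenchymal and mural markers 1 rose and 2 fell, and their sum was 4400–4683 FPKM in P1 and 4733–4942 FPKM in P5 iMGCs; of 7 MGC markers tested 2 were higher in P5, CRYAB (27.8–32.7 to 128.2–140.9 FPKM) and SLC1A3 (0.36–0.39 to 1.12–1.23 FPKM).

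**Figure D5:**
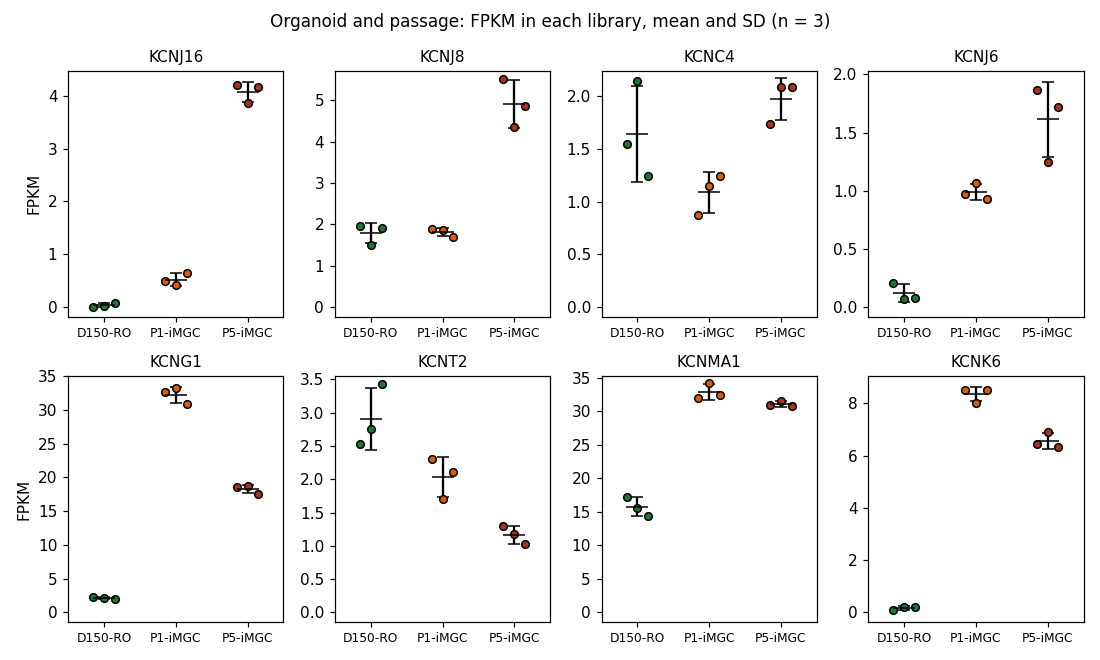
FPKM (y axis) of 8 members in D150-ROs, P1 and P5 iMGCs (x axis), with points for libraries, a line at the mean of 3 libraries and error bars for the SD. KCNJ16 and KCNJ8 are higher in all 3 P5 libraries than in any P1 library, KCNG1 and KCNT2 are lower, while KCNMA1 is at 30.7 FPKM or more in each iMGC library.

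A list of 38 other genes of potassium handling (among them pumps, cotransporters, anchoring proteins and channel partners) was set beside the family. Of 27 tested in D70-ROs against hiPSCs 9 were higher and 8 lower. From D70 to D150, 13 of 28 were higher and 4 lower, and in iMGCs against D150-ROs 5 of 27 were higher and 16 lower; between the passages 6 of 18 passed edgeR's adjusted p, each with a change below the 2-fold limit, ABCC9 (0.77) among them. The sodium pump subunit ATP1B2 fell in iMGCs (203.2–207.1 FPKM in D150-ROs, 0.11–0.35 in iMGCs, −9.22). The general pump subunit ATP1B1 (0.48) did not pass the 2-fold limit, and ATP1B3 rose (15.7–18.7 to 45.8–54.1 FPKM, 2.22). The scaffold DLG1 rose as well (54.6–60 to 155.1–187.3 FPKM, 2.37), while its relative DLG4, which anchors channels at synapses, fell (167.0–181.0 to 8.14–11.01 FPKM, −3.29).

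The members left over were low in these libraries. In all 36 were tested in no comparison: KCNJ13 and the 35 whose mean stayed below 1 FPKM in each group. Of the 35, KCNJ14, KCNK10 and KCNJ5 came nearest, with highest group means of 0.907, 0.907 and 0.887 FPKM, and KCNA1, the Shaker pore of axons, had at most 0.11 FPKM. KCNE4, a subunit that silences Shaker channels, had its highest mean in P5 iMGCs, at 0.257 FPKM. Several counts cannot be separated from neighbours, since KCNMB3 shares exon bases with PIK3CA, KCNJ13 with GIGYF2 and KCNAB2 with NPHP4 on the opposite strand, and KCNJ14 with GRWD1 and KCNA6 with GALNT8 on the same strand.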

How the data were processed

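The submitters' processing notes name HISAT2, StringTie, RSEM and DESeq2 as the tools applied to the poly(A) RNA-seq reads, the last of them for the authors' own comparisons. Versions, genome build and annotation are not given in the sources used here. The deposited tables hold RSEM expected counts, which the authors did not normalize, and FPKM, in which the authors had corrected for length and library size, for 15 libraries. Between 8.21% and 10.1% of the counts were not whole and were rounded. Columns with the authors' own comparisons were not used, nor were 6 columns of per-sample values from MGCs without a passage label. D150-RO FPKM was identical in both tables that hold it, and its counts differed by at most 0.5.

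All 19684 gene identifiers matched GENCODE 29, which gave positions (GRCh38), transcript lengths and exon overlaps. The protocol does not state that libraries were stranded. Members, gene lists and tests were chosen with earlier results of these data known. Genes that reached 1 FPKM in 3 or more libraries of a comparison entered edgeR's quasi-likelihood test (edgeR 4.0.16, R 4.3.3, TMM factors, rounded counts, 2 groups at a time, no covariates). Called genes had a Benjamini-Hochberg adjusted p under 0.05 over all genes tested and at least a 2-fold change. A group with 0 counts was given a floor of 3 counts over the group, and with 1 to 3 counts a 95% counting interval; both cover counting error only.

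Members were named by rule: the 3 called members with the largest rise and fall in each class and comparison, the 2 with the highest mean in each class and group, every call between the passages, and a fixed list; others were named after their values were seen. Alternatives were other filters, upper-quartile scaling, DESeq2 1.42.0, limma 3.58.1 on log2(FPKM + 1) and log2(FPKM + 0.1), a test against a 2-fold change, a transcript length correction, a replicate block, 1 fit of all 15 libraries, single passages and leaving out each library. Tested on simulated data with 200 genes changed 4-fold, edgeR recovered 97.5% of them in the comparison of iMGCs with D150-ROs (13024 genes) and 100% in that of the passages (11366 genes). The changed genes were few and went up and down in equal number, so the simulation says nothing about the scaling between groups. Protein sequences were not used here. Values of 2 members and of some other genes are not reported here; these stay in the counts and sums over the family and lists.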

Additional observations from a re-analysis of the deposited data

Results flagged for a closer look

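Over the 6 iMGC libraries, 36 members were screened for a single library that stands apart from the rest (by Dixon's 95% limit on its gap to the nearest library, which chance passes in about 1 of 20 groups), and 7 met this limit. KCNN4 was the only 1 of them above 1 FPKM: P5 iMGC replicate 3 had 4.25 FPKM and the others 2.13 to 2.70. The other 6 were close to 0, where a few counts decide the value. P1 iMGC replicate 2 stood apart in KCNN1 (0.24 against 0 to 0.07 FPKM), KCNN3 (0.14 against 0.01 to 0.05) and KCNJ2 (0.02 against 0.10 to 0.13), and P1 iMGC replicate 1 in KCNK12 (0.17 against 0.04 to 0.08). P5 iMGC replicate 2 stood apart in KCNC2 (0.01 against 0), and P5 iMGC replicate 3 in KCNJ3 (0.03 against 0 to 0.01).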

How the results depend on the processing

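Without a filter on level more members were called, since more were tested. They were 54 of 89 in D70-ROs against hiPSCs and 64 of 89 in D150-ROs against hiPSCs, beside 41.7% and 54.4% of all genes. In iMGCs against D150-ROs 67 of 91 were called and between the passages 9 of 81, beside 43.1% and 4.29% of all genes. The filter on counts gave 48 of 68 in D70-ROs against hiPSCs and 8 of 36 between the passages, beside 46% and 4.46% of all genes. KCNN3 in D150-ROs against hiPSCs turned to −0.44 with the length trend removed and to −0.45 with the replicate block and that removal together. Deviations of equally numbered replicates correlated between −0.0587 and 0.347. The highest values were those of replicates 2 (0.347) and 3 (0.15) between hiPSCs and D70-ROs. Unequal numbers were not compared, so whether replicate numbers pair the libraries was not settled. The replicate block gave the same 31, 42, 27, 40 and 3 calls in the 5 comparisons. Leaving out 1 library gave between 29 and 32 calls in D70-ROs against hiPSCs, 41 and 42 in D150-ROs against hiPSCs, 26 and 29 in D150-ROs against D70-ROs, 40 and 41 in iMGCs against D150-ROs, and 3 between the passages. Of the named called members 21 of 26, 30 of 35, 17 of 21, 29 of 33 and 2 of 3 kept direction and call in every alternative that tested them. A member too low to be tested in an alternative is not counted as changed there. With the P1 libraries alone 43 members were tested against D150-ROs, and 36 of the 40 calls were kept.

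Rescaled by TMM factors, class sums in D70-ROs, D150-ROs, P1 and P5 iMGCs were 103.6, 197, 53.6 and 41.9 FPKM for voltage-gated, 14.1, 7.24, 5.90 and 15.1 for inward rectifier, 29.2, 18.6, 13.4 and 12.4 for tandem-pore and 23.3, 38.0, 12.6 and 14.2 for accessory genes, and 20.5, 45.01 and 44.2 in D150-ROs, P1 and P5 iMGCs for calcium-activated genes. With 3 libraries in a group, 36 members were too low to be tested.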
